A study of Mus musculus with 4 samples.

Results

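Erythroid genes make the cells that become red blood cells, and 7 of them were followed through 4 libraries of sorted mouse macrophages. They are Alas2, Slc4a1, Klf1, Epor, Gata1, Ahsp and Ermap, picked out of the files by symbol, and each had reads in all 4 libraries. They are 7 of the 17008 genes with a uniquely mapped read in any library. The macrophages came from bone marrow (BM) and spleen of C57BL/6J mice aged 6 to 8 weeks. T-ALL mice had T cell acute lymphoblastic leukaemia at day 21 after a transplant of GFP-positive leukaemia cells without irradiation, and such mice survived 35 to 40 days. Normal mice were those at day 0. The T-ALL BM, normal BM, T-ALL spleen and normal spleen groups have 1 library each, so differences have no replicate behind them and no test was made. The sort's markers, the number of mice and the driver of the leukaemia are not stated in the labels.

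Red cells arise from progenitors in the marrow and, in the mouse, also in the spleen, where erythroblasts mature around macrophages that take up their nuclei. Macrophages also engulf worn red cells and erythroblasts. In erythroid cells GATA1 and KLF1 are the leading transcription factors, the erythropoietin receptor keeps early precursors alive, and ALAS2, globin and band 3 are made in large amounts as the cells mature.

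Levels are CPM, reads of a gene per 1000000 (1 M) reads of the scaled library, and comparisons between genes use RPKM, which also divides by the gene's length. The libraries held 8.98 M to 9.81 M uniquely mapped reads, so that 1 read was worth 0.101 to 0.112 CPM. Values in parentheses after a level or a ratio are 95% counting intervals, which reflect the number of reads alone and say nothing of how animals vary. The size rule calls a gene 2-fold higher or lower if its log2(CPM + 1) values are at least 2-fold apart and the larger level is 10 CPM or more; genes with that level are called measured. Ratios are of CPM without the pseudocount. In bulk RNA, fewer cells of a type and less RNA per cell cannot be told apart.

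The libraries differed in the levels of marker genes of several cell types. The summed level of 9 macrophage identity genes was 8139 CPM in T-ALL BM and 3547 CPM in normal BM, and 2803 CPM in T-ALL spleen and 5445 CPM in normal spleen. Most of both BM sums was Lyz2, at 5494 CPM in T-ALL BM and 2572 CPM in normal BM. In spleen Lyz2 was at 241 CPM in T-ALL and 946 CPM in normal. Lyz2 and Itgam were called lower in normal spleen than in normal BM, and the other 7 genes higher. None of the 9 was at 0 in any library, but Emr1, which encodes F4/80, was at 303 CPM in T-ALL BM and 39.5 CPM in normal BM. A list of 11 T cell and T-ALL genes summed to 988 CPM in T-ALL BM and 298.5 CPM in normal BM, and to 3539 CPM in T-ALL spleen and 1085.5 CPM in normal spleen, with no gene of the list at 0 in any library. Xist, which coats the silenced X chromosome of female cells, was at 0.644 CPM in T-ALL BM against 861 CPM in normal BM, and at 416 CPM in T-ALL spleen against 849 CPM in normal spleen, and the Y-linked Ddx3y had 874 and 532 reads in the T-ALL libraries and 0 reads in both normal libraries. Xist thus differed between T-ALL and normal, and between T-ALL BM and T-ALL spleen. In those comparisons the sex of the cells cannot be told apart from condition or organ for any gene.

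In bone marrow, the erythroid members differed from each other in how T-ALL compared with normal. Alas2 and Slc4a1, products of maturing erythroblasts, were over 4-fold higher in the T-ALL library. Epor and Ahsp were higher by less than 2-fold, Klf1 and Ermap did not differ beyond counting error, and Gata1 was lower. Of the 7 members, 2 were thus called 2-fold higher and 0 lower, where 8.01% of the 9716 genes measured were called higher and 1.03% lower. The median log2 fold of the members was 0.62, and that of all genes measured was -0.04.

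In spleen, 3 members were lower in T-ALL beyond counting error, 1 was higher and 3 did not differ beyond it. Epor was the only member called lower, Ermap and Gata1 were lower by less than 2-fold, Alas2 was higher by less than 2-fold, and Slc4a1, Klf1 and Ahsp did not differ beyond counting error. Of the 7 members, 1 was called 2-fold lower and 0 higher, where 11.0% of the 9774 genes measured were called lower and 10.3% higher. Only 4 of the 7 reached 10 CPM in either spleen library, and Klf1, Gata1 and Ahsp stayed under it in both. The median log2 fold of the 7 was -0.09, beside -0.08 for all genes measured.

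**Figure D1:**
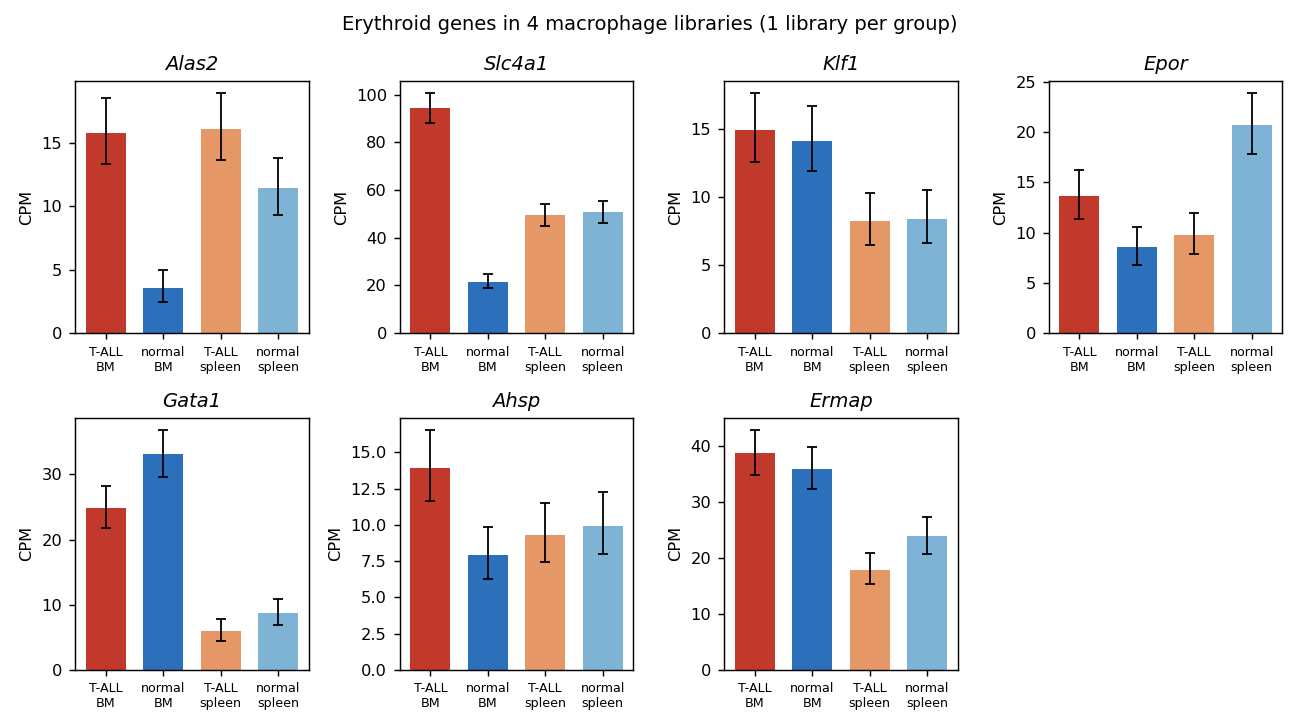
Level in CPM (y axis, from 0, scaled per gene) of the 7 erythroid genes in each library (x axis). Bars are the single library of each group and error bars are exact Poisson 95% counting intervals. Slc4a1 stands highest in T-ALL BM at 94.2 CPM, Gata1 is over 20 CPM in both BM libraries and under 10 CPM in both spleen libraries, and Epor is highest in normal spleen.

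Among the enzymes of haem, Alas2 encodes the erythroid form of 5-aminolevulinate synthase, which starts the pathway. It had 147 reads, 15.8 CPM (13.3 to 18.5), in T-ALL BM and 35 reads, 3.55 CPM (2.47 to 4.94), in normal BM. It had 149 reads, 16.1 CPM (13.6 to 18.9), in T-ALL spleen and 102 reads, 11.4 CPM (9.30 to 13.9), in normal spleen. The normal BM library stood apart as low, and both T-ALL libraries were alike, with a spleen over BM ratio of 1.02 (0.809 to 1.29). The ratio of T-ALL over normal was 4.44 (3.06 to 6.62) in BM and 1.41 (1.09 to 1.84) in spleen. Reads covered 91.5% of the gene's listed length in T-ALL BM and 52.6% in normal BM, and 92.9% in T-ALL spleen and 88.9% in normal spleen. Alas1, the form of the same enzyme that all tissues use, ran the other way in BM, at 119 CPM in T-ALL BM and 370 CPM in normal BM. In spleen Alas1 was at 35.9 CPM in T-ALL and 39.3 CPM in normal. Per length, Alas1 was 5.54 times the level of Alas2 in T-ALL BM and 76.5 times in normal BM, against 1.64 times in T-ALL spleen and 2.53 times in normal spleen.

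Slc4a1 encodes band 3, the anion exchanger that carries bicarbonate across the red cell membrane and anchors its skeleton. It had 878 reads, 94.2 CPM, in T-ALL BM and 212 reads, 21.5 CPM, in normal BM. It had 456 reads, 49.4 CPM, in T-ALL spleen and 452 reads, 50.6 CPM, in normal spleen. The T-ALL over normal ratio was 4.38 (3.77 to 5.11) in BM and 0.976 (0.855 to 1.11) in spleen, so the 2 spleen libraries lay between those of the marrow and were not distinguishable from each other. On the log2 scale, the T-ALL difference in BM exceeded that in spleen by 2.17 (1.88 to 2.45) for Slc4a1 and by 1.65 (1.01 to 2.30) for Alas2, with counting intervals and no test over animals. Of all genes measured in BM, 97.5% had a lower log2 fold than Slc4a1 and 96.8% a lower one than Alas2.

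Ahsp encodes the chaperone that holds free alpha globin in solution until it pairs with beta globin. It had 130 reads, 14.0 CPM, in T-ALL BM and 78 reads, 7.91 CPM, in normal BM, a ratio of 1.76 (1.32 to 2.37). In spleen it had 86 reads, 9.31 CPM, in T-ALL and 89 reads, 9.96 CPM, in normal, a ratio of 0.935 (0.687 to 1.27). Ahsp is the shortest member, with a listed length of 494 bases, and per length it was the most abundant of the 7 in 3 libraries. Its level was 28.0 RPKM in T-ALL BM, 19.0 RPKM in T-ALL spleen and 20.1 RPKM in normal spleen, while in normal BM its 16.1 RPKM stood below the 17.5 RPKM of Gata1.

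Ermap encodes a red cell membrane protein of the immunoglobulin superfamily that carries the Scianna blood group in humans. It had 360 reads, 38.6 CPM, in T-ALL BM and 353 reads, 35.8 CPM, in normal BM, and the ratio of 1.08 (0.929 to 1.25) did not exclude equal levels. In spleen it had 165 reads, 17.9 CPM, in T-ALL and 213 reads, 23.8 CPM, in normal, a ratio of 0.750 (0.608 to 0.923). Both BM libraries were above both spleen libraries.

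Epor encodes the erythropoietin receptor. It had 127 reads, 13.6 CPM (11.4 to 16.2), in T-ALL BM and 84 reads, 8.52 CPM (6.80 to 10.6), in normal BM. It had 90 reads, 9.74 CPM (7.84 to 12.0), in T-ALL spleen and 185 reads, 20.7 CPM (17.8 to 23.9), in normal spleen. The highest library was therefore normal spleen and the lowest normal BM, with T-ALL spleen not distinguishable from the lowest at a ratio of 1.14 (0.840 to 1.56). T-ALL over normal was 1.60 (1.20 to 2.13) in BM and 0.471 (0.362 to 0.609) in spleen, which are opposite directions. The spleen difference lay just inside the 2-fold rule, at a log2 fold of -1.01, and it did not pass the rule with total-read scaling (-0.997), median-of-ratios scaling (-0.97), the deposited RPKM (-0.94) or a pseudocount of 5 (-0.80).

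Gata1 encodes the transcription factor of the erythroid and megakaryocyte lineages, which mast cells, basophils and eosinophils also express. It had 231 reads, 24.8 CPM, in T-ALL BM and 326 reads, 33.1 CPM, in normal BM. It had 55 reads, 5.95 CPM, in T-ALL spleen and 78 reads, 8.73 CPM, in normal spleen. The T-ALL over normal ratio was 0.750 (0.631 to 0.890) in BM and 0.682 (0.474 to 0.976) in spleen. Each step in the order of the 4 libraries exceeded counting error, with normal BM highest and T-ALL spleen lowest, 5.55-fold apart (4.16 to 7.53). Gata1 and Alas2 lie on the X chromosome in RefSeq, and Xist and Y-linked transcripts moved with condition as given above. The part of sex in these values was not tested and cannot be told apart from that of condition.

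Klf1 encodes the erythroid Kruppel-like factor that switches on adult beta globin. It had 139 reads in both BM libraries, 14.9 CPM in T-ALL and 14.1 CPM in normal, and 76 and 75 reads in spleen, 8.23 CPM in T-ALL and 8.39 CPM in normal. The ratio of T-ALL over normal was 1.06 (0.830 to 1.35) in BM and 0.981 (0.703 to 1.37) in spleen. In spleen the interval reached from 1.37-fold higher to 1.42-fold lower.

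**Figure D2:**
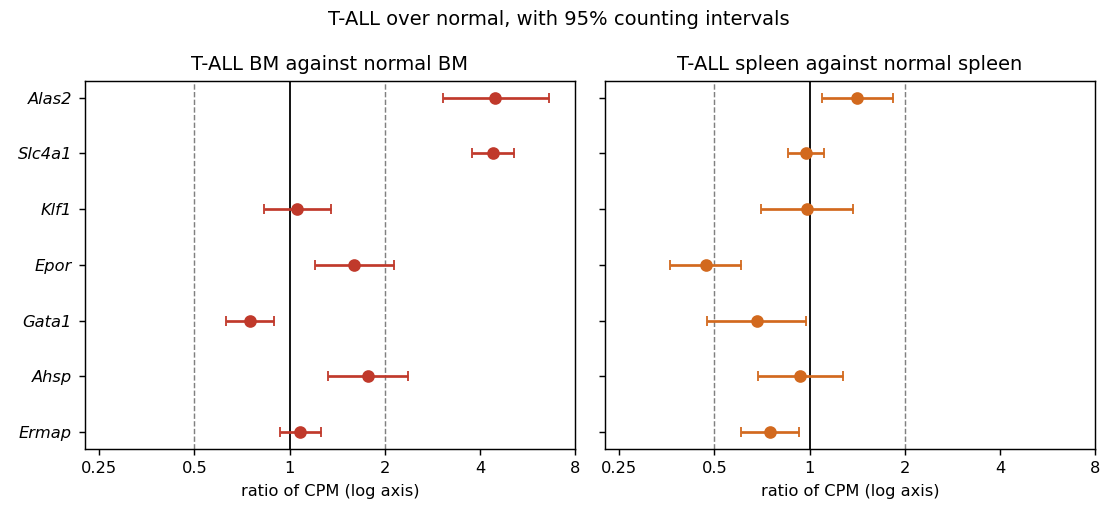
Ratio of CPM, T-ALL over normal, on a log axis for each erythroid gene (rows), in BM on the left and spleen on the right. Points are ratios of single libraries, bars their exact binomial 95% counting intervals, the solid line a ratio of 1 and the dashed lines 2-fold either way. In BM Alas2 and Slc4a1 lie past 4 and Gata1 below 1, whereas in spleen Epor is the lowest, at 0.471.

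Set beside each other within a library, the members were present in unlike proportions. The RPKM of Slc4a1 was 1.58 times that of Gata1 (1.36 to 1.83) in T-ALL BM and 0.270 times (0.226 to 0.322) in normal BM. In spleen it was 3.44 times (2.60 to 4.64) in T-ALL and 2.40 times (1.89 to 3.10) in normal. Slc4a1 over Klf1, in RPKM, was alike in 3 libraries, at 2.11 in T-ALL BM, 2.01 in T-ALL spleen and 2.02 in normal spleen, and was 0.510 (0.410 to 0.637) in normal BM. The normal BM library was thus the one with little Slc4a1 relative to Klf1. Gata1 made up 13.7% of the summed RPKM of the members in T-ALL BM and 28.2% in normal BM, against 5.64% in T-ALL spleen and 7.22% in normal spleen. Together the 7 genes took 2012 reads in T-ALL BM and 1227 in normal BM, and 1077 in T-ALL spleen and 1194 in normal spleen, which is 0.0118% to 0.0214% of a library.

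Between organs, Gata1, Ermap and Klf1 were lower in spleen than in BM in T-ALL and in normal mice. Slc4a1 and Epor were lower in T-ALL spleen than in T-ALL BM, and higher in normal spleen than in normal BM. These comparisons use the same 4 libraries as those above, so they give no independent view of them. In T-ALL mice, spleen was 2-fold lower than BM for 2 members and higher for 0, where 11.0% of the 9852 genes measured were lower and 5.44% higher. Gata1 was 4.16-fold lower (3.09 to 5.69) and Ermap 2.16-fold lower (1.79 to 2.62), and Slc4a1, just outside the rule, was 1.91-fold lower (1.70 to 2.14). The Ermap call ended with RPKM, at a log2 fold of -0.92, and with a pseudocount of 5, at -0.93. Klf1 was 1.81-fold lower (1.36 to 2.43), and Alas2 was the member that did not differ beyond counting error.

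In normal mice, spleen was 2-fold higher than BM for 3 members and lower for 1, where 16.1% of the 10072 genes measured were higher and 14.0% lower. Alas2 was 3.21-fold higher (2.17 to 4.86), Epor 2.43-fold higher (1.87 to 3.18) and Slc4a1 2.35-fold higher (1.99 to 2.78), while Gata1 was 3.79-fold lower (2.95 to 4.92). With a pseudocount of 5 the calls of Alas2 and Epor ended, at log2 folds of 0.94 and 0.93. Ermap and Klf1 were lower by less than 2-fold, at ratios of 0.665 (0.559 to 0.791) and 0.595 (0.443 to 0.793). Ahsp, at 1.26 (0.918 to 1.73), did not differ beyond counting error. Summed over the 7 members, spleen over BM was 0.540 (0.501 to 0.582) in T-ALL and 1.07 (0.990 to 1.16) in normal mice.

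GATA1 binds short DNA words built on GATA, so the RefSeq promoters of the members (GRCm38.p6, 250 bases before to 50 after the start, in the sense of the gene) were searched on both strands for the word AGATAA, the word TGATAA, the word AGATAG and the word TGATAG. Slc4a1 and Ahsp were not searched. Of the 7 members, 5 had a promoter in the table used, and 4 of these 5 held exactly 1 word, where 29.8% of the 32851 promoters in the table held at least 1. The promoters below are shown because they are those 4, with the word in capitals. All 4 words are on the strand opposite to the gene and so are printed as TTATCT, for AGATAA, or TTATCA, for TGATAA. The promoters are those of Alas2 (chrX:150547167-150547466, + strand, word from -86), Epor (chr9:21963527-21963826, - strand, word from -54), Klf1 (chr8:84901732-84902031, + strand, word from -80) and Ermap (chr4:119189946-119190245, - strand, word from -67), counted from the first base of the transcript.
Alas2: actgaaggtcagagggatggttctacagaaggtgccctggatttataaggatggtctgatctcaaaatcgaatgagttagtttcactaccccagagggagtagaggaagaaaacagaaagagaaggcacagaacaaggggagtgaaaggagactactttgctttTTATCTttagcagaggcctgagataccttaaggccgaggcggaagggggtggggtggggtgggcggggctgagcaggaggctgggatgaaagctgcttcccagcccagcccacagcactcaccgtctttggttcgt
Epor: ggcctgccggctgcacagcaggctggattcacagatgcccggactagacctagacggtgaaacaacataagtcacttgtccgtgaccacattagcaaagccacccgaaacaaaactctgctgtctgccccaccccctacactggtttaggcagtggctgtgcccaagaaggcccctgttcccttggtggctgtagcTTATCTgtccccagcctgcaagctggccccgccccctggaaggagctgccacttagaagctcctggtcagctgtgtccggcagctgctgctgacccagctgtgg
Klf1: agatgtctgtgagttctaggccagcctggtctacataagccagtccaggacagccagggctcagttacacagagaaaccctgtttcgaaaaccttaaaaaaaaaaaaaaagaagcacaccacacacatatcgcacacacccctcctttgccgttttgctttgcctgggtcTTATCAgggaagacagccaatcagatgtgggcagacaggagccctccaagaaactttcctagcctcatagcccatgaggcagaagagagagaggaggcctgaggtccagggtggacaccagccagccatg
Ermap: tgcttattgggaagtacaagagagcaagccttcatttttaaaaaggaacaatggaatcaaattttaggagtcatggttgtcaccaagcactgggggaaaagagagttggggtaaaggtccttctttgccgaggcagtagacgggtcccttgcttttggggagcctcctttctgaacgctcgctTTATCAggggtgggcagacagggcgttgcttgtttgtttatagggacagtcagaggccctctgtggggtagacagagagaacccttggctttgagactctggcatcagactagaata
The Gata1 promoter in the table (chrX:7967861-7968160, - strand) held none of the 4 words in its 300 bases. A match is a description of letters, and the part of these words in the levels was not tested.

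The wider erythroid programme was followed with 6 lists. In T-ALL BM both measured globin genes were called higher, and 0 of 10 transcription factors and cofactors were. Of all genes measured in that comparison, 8.01% were called higher and 1.03% lower, and 0 of 10 is near that share. Hbb-b1, adult beta globin, was at 17.5 CPM in T-ALL BM and 3.96 CPM in normal BM, a ratio of 4.42 (3.10 to 6.44), and Hba-a1, adult alpha globin, had 242 reads in T-ALL BM and 69 reads in normal BM, a ratio of 3.71 (2.83 to 4.92). Globin genes have near-identical copies, so their unique reads are uncertain, and the low totals are not the level of globin RNA. Of the 17 genes of the red cell membrane and skeleton, 10 were measured, 2 were called higher and 1 lower. Without the minimum level, 12 of the 17 had a counting interval above 1 and 3 below it. Among those 12, 6 were not measured. The share of all genes with such intervals is not given here. Xk, a membrane transport protein that partners the Kell antigen, was called lower, at 16.8 CPM in T-ALL BM and 39.3 CPM in normal BM, a 2.33-fold difference (1.93 to 2.82).

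The other lists held few called genes in T-ALL BM, beside 8.01% of all genes measured called higher and 1.03% lower. Of 13 haem synthesis genes other than Alas2, 0 were 2-fold higher or lower in T-ALL BM, with a median log2 fold of 0.11. The most abundant, Slc25a37, which brings iron into mitochondria, was at 124 CPM in T-ALL BM and 99.0 CPM in normal BM. Of 10 erythroid transcription factors and cofactors, 0 passed the rule either way, and the median log2 fold was -0.20. A counting interval below 1 was found for 8 of them and above 1 for 0, without a share of all genes to set beside it. Tcf3, the most abundant, was at 217 CPM in T-ALL BM and 231 CPM in normal BM, while Tal1, Gata1's partner in erythroid cells, was at 54.2 and 76.3 CPM. Of 11 genes of Epo receptor signalling and iron uptake, 1 was higher and 0 lower. It was Lyn, a kinase that myeloid cells also use, at 420 CPM in T-ALL BM and 186 CPM in normal BM. Of 12 genes of late red cell maturation, 10 were measured, 1 was higher and 0 lower. That gene was Alox15, a lipoxygenase of reticulocytes that macrophages and eosinophils also make, at 65.6 CPM in T-ALL BM and 23.7 CPM in normal BM.

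In spleen the counts were different, beside 10.3% of all genes measured called higher and 11.0% lower. None of the 3 measured globin genes passed the rule, with Hba-a1 at 30.3 CPM in T-ALL spleen and 23.3 CPM in normal spleen, a ratio of 1.30 (1.08 to 1.57). None of the 6 measured membrane and skeleton genes and none of the 13 haem synthesis genes passed it either, with median log2 folds of 0.07 and -0.05. The most abundant of them were Epb4.1 (protein 4.1), at 172 CPM in T-ALL spleen and 189 CPM in normal spleen, and Tmem14c, which carries a haem precursor across the mitochondrial membrane, at 118 and 121 CPM. Of the 10 erythroid transcription factors and cofactors, 9 were measured, 5 were lower and 0 higher, with a median log2 fold of -1.03. Cbfa2t3, a corepressor, was 3.03-fold lower (2.79 to 3.31), Lyl1 2.93-fold lower (2.58 to 3.34) and Bcl11a, the repressor of fetal globin, 2.82-fold lower (2.56 to 3.11). B cells or dendritic cells are known to use all 3, and the part of such cells in these values was not tested. Of 9 measured genes of Epo receptor signalling and iron uptake, 2 were higher and 1 was lower. Tfrc, the transferrin receptor of all dividing cells, was at 291 CPM in T-ALL spleen and 120 CPM in normal spleen, Steap3, a ferrireductase, at 21.1 and 9.96 CPM, and Jak2, the kinase bound to the receptor, at 129 and 338 CPM. Of 9 measured late maturation genes, Prdx2, a peroxidase, was higher, at 201 CPM in T-ALL spleen and 95.6 CPM in normal spleen, and Car1, a carbonic anhydrase, was lower, at 35.3 and 77.7 CPM. The 12 cell cycle genes were all 2-fold higher in T-ALL spleen, with a summed level of 2522 CPM in T-ALL and 629.8 CPM in normal spleen, and their part in these values was not tested.

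**Figure D3:**
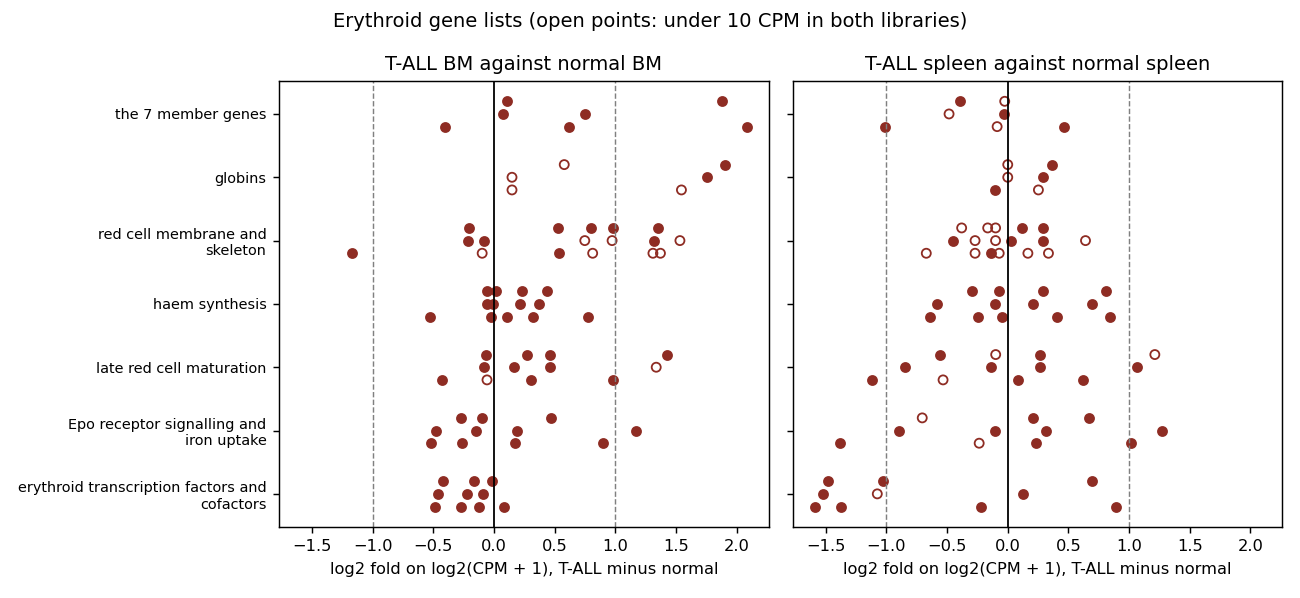
Log2 fold on log2(CPM + 1), T-ALL minus normal (x axis), for the 7 members and for each gene of 6 erythroid lists (rows), in BM on the left and spleen on the right. Each point is a gene, open points had under 10 CPM in both libraries, heights within a row are only for legibility, and dashed lines mark 2-fold. In BM the globin points lie right of 0 and the transcription factor points at or left of it, up to 0.08, and in spleen 5 measured transcription factors lie past the left line.

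Between organs, about as many transcription factors passed the rule as did not, and those that passed were lower in spleen. In T-ALL, 5 of 10 were lower and 0 higher than in BM, led by Nfe2, a factor of the erythroid and megakaryocyte lineages, which was 16.9-fold lower (13.5 to 21.4), at 8.99 CPM in spleen and 152 CPM in BM. Over all genes measured, 11.0% were lower and 5.44% higher. Gfi1b was 5.70-fold lower (3.80 to 8.85) and Tal1 4.77-fold lower (3.86 to 5.94). In normal mice 4 of 10 were lower and 0 higher, with Nfe2 9.51-fold lower (8.13 to 11.2), Tal1 5.68-fold lower (4.68 to 6.95) and Gfi1b 3.22-fold lower (2.45 to 4.29), where 14.0% of all genes measured were lower and 16.1% higher. Others were higher in spleen without passing the rule, Tcf3 at a ratio of 1.53 in T-ALL, and Bcl11a and Cbfa2t3 each at 1.78 in normal mice. All 3 measured globin genes were 2-fold higher in normal spleen than in normal BM, with Hba-a2 at a ratio of 5.38 (3.44 to 8.72), Hbb-b1 at 3.90 (2.72 to 5.72) and Hba-a1 at 3.32 (2.52 to 4.43), and none passed the rule between the T-ALL organs. Abcb10, a mitochondrial transporter of the haem pathway, was lower in spleen, 2.90-fold (2.46 to 3.44) in T-ALL and 2.77-fold (2.42 to 3.18) in normal mice, as was Tfr2, a transferrin receptor of erythroid cells and liver, 8.45-fold (6.21 to 11.7) in T-ALL and at a ratio of 0.0996 (0.0739 to 0.132) in normal mice. In the T-ALL organs these were the only genes called of 13 in the haem list and of 10 measured in the Epo receptor and iron list.

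Among membrane and skeleton genes, 3 of 10 measured were lower in T-ALL spleen than in T-ALL BM and 2 of 6 in normal spleen than in normal BM, with 0 higher in both. The shares of all genes measured were 11.0% lower and 5.44% higher in T-ALL, and 14.0% lower and 16.1% higher in normal mice. Xk was 2.64-fold lower (1.94 to 3.62) in T-ALL and 4.56-fold lower (3.56 to 5.90) in normal mice. Aqp1, a water channel of red cells, was 2.75-fold lower (2.37 to 3.19) in T-ALL and 2.29-fold lower (2.02 to 2.61) in normal mice, and Kel, the Kell antigen, was 3.49-fold lower (2.29 to 5.46) in T-ALL. In normal mice Lyn was 3.67-fold higher in spleen (3.48 to 3.87), Jak2 2.44-fold higher (2.29 to 2.60) and Steap3 3.74-fold lower (2.96 to 4.77). Of 10 measured late maturation genes, 1 was higher in spleen and 3 were lower, in T-ALL and in normal mice alike, beside the same shares of all genes. Fam46c, the higher one, was at 37.0 CPM in T-ALL spleen and 14.2 CPM in T-ALL BM, and at 34.8 CPM in normal spleen and 6.70 CPM in normal BM. Alox15 was 7.21-fold lower (5.73 to 9.17) in T-ALL and 7.07-fold lower (4.82 to 10.7) in normal mice, and the carbonic anhydrase Car2 2.67-fold (2.41 to 2.96) and 2.54-fold (2.30 to 2.81). The third was Car1 in T-ALL, 2.17-fold lower (1.90 to 2.49), and Hemgn, a nuclear protein of blood progenitors, in normal mice, 2.40-fold lower (1.85 to 3.15).

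The summed levels of megakaryocyte genes and of mast cell and basophil genes had the order of Gata1 over the 4 libraries. The sum of eosinophil genes did not, though some genes of that list did. The summed level of 10 megakaryocyte and platelet genes was 274 CPM in T-ALL BM and 425 CPM in normal BM, and 18.9 CPM in T-ALL spleen and 42.2 CPM in normal spleen. That of 10 mast cell and basophil genes was 1507 CPM in T-ALL BM and 2980 CPM in normal BM, and 32.2 CPM in T-ALL spleen and 48.3 CPM in normal spleen. Both sums and Gata1 were highest in normal BM, then T-ALL BM, then normal spleen, and lowest in T-ALL spleen. That order was not particular to genes of these cells. Tal1, Nfe2, Gfi1b and Tfr2 of the erythroid lists had it too, while Ldb1 and Tcf3 did not. Epx and Siglec5 of the eosinophil list also had it. Some genes within the megakaryocyte and the mast cell and basophil sums, such as Ppbp and Cma1, did not. Gata2, a factor of mast cells, basophils and early progenitors, was at 179.5 CPM in T-ALL BM and 252.5 CPM in normal BM, and at 5.52 CPM in T-ALL spleen and 10.7 CPM in normal spleen. The sum of 6 eosinophil genes was 866 CPM in T-ALL BM and 757 CPM in normal BM, and 99.6 CPM in T-ALL spleen and 377 CPM in normal spleen. Within that list Epx, Prg2, Prg3 and Siglec5 were lower in both spleen libraries than in both BM libraries, and Prg2, a granule protein, was at 575 CPM in T-ALL BM and 497 CPM in normal BM, and at 4.66 CPM in T-ALL spleen and 8.28 CPM in normal spleen. Ccr3, the eotaxin receptor, ran apart, at 79.1 CPM in T-ALL BM and 5.38 CPM in normal BM, and at 86.3 CPM in T-ALL spleen and 349 CPM in normal spleen, and Il5ra was highest in normal spleen, at 14.0 CPM. Among defining mast cell genes, Mcpt4 and Tpsb2 had at most 2 reads in any library, and Cma1 had 0 reads in T-ALL BM and 8 in normal BM, and 2 in T-ALL spleen and 15 in normal spleen. The part of these cells in the Gata1 level was not tested.

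Most genes of a list of erythroblastic island and red pulp macrophages were higher in T-ALL BM, where Alas2 and Slc4a1 were higher too. The sum of 11 such genes was 2695.5 CPM in T-ALL BM and 598 CPM in normal BM, and 4036 CPM in T-ALL spleen and 7656 CPM in normal spleen. In BM 8 of the 11 were 2-fold higher and 0 lower, beside 8.01% and 1.03% of all genes measured, and in spleen 1 was higher and 5 were lower, beside 10.3% and 11.0%. The BM difference was not particular to this list. There 8 of the 9 macrophage identity genes and 8 of the 10 measured T cell and T-ALL genes were 2-fold higher too. The part of any of these cells in the levels of the erythroid genes was not tested.

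**Figure D4:**
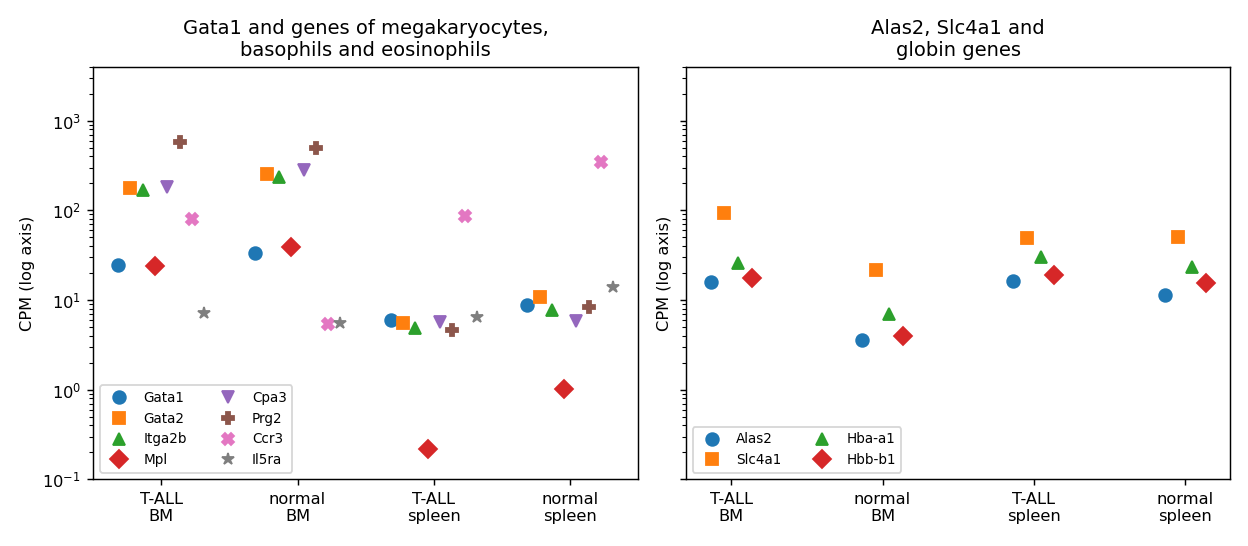
CPM on a log axis (y axis) in each library (x axis) of Gata1 with genes of megakaryocytes, basophils, mast cells and eosinophils on the left, and of Alas2 and Slc4a1 with globin genes on the right. Each symbol is a gene in the single library of that group, and the genes beside the members were picked from their lists after their values were seen. On the left both BM libraries stand above both spleen libraries for 6 of the 8 genes, with Ccr3 and Il5ra the exceptions, and on the right normal BM is the lowest library for all 4.

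The genes most like each member were taken as the 3 with the smallest root mean square difference between log2(CPM + 1) profiles centred over the 4 libraries, out of 10312 genes with 10 CPM or more in any library. Predicted genes, clone names, pseudogenes and antigen receptor segments were passed over when naming these 3. They remain among the 10312 genes and in the counts of genes within 0.2. For Alas2 these were Hba-a1 at 0.10, Socs3 at 0.11 and Hbb-b1 at 0.11, and only 9 genes lay within 0.2. In RPKM, Alas2 over Hba-a1 was 0.174 in T-ALL BM, 0.146 in normal BM, 0.153 in T-ALL spleen and 0.141 in normal spleen, with counting intervals that all overlapped. Near profiles make such a ratio steady, so it is no separate result. Ahsp over Hba-a1 was not steady, at 0.619 (0.496 to 0.769) in T-ALL BM and 1.30 (0.930 to 1.83) in normal BM. In spleen it was 0.354 (0.275 to 0.452) in T-ALL and 0.493 (0.380 to 0.635) in normal. Slc4a1 was nearest to Lgals3 at 0.07, Tlr2 at 0.18 and Il1rn at 0.20, with 3 genes within 0.2. Lgals3 encodes galectin-3 and Tlr2 a Toll-like receptor, and macrophages express both. Lgals3 was at 301 CPM in T-ALL BM and 64.8 CPM in normal BM, and at 156 CPM in T-ALL spleen and 144 CPM in normal spleen.

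The other members had more near profiles. Gata1 was nearest to Ocrl at 0.04, Rai14 at 0.06 and Mxi1 at 0.06, with 71 genes within 0.2. Klf1 was nearest to Septin8 at 0.03, Itgb3 at 0.03 and Lims1 at 0.05, with 350 genes within 0.2, and Itgb3 encodes an integrin chain abundant on platelets. Epor was nearest to Hps5, Tatdn3 and Cyp4f13, with 444 genes within 0.2. Ahsp was nearest to Rap2a, Srxn1 and Tbck, with 257, and Ermap to Prkag2, Rcor3 and Ttbk2, with 251. Among the members themselves, Klf1 and Ermap were the closest pair, 0.14 apart, then Alas2 and Slc4a1, 0.36 apart, while Alas2 and Gata1 were the farthest, 1.56 apart. With 4 libraries such likeness describes these libraries alone.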

How the data were processed

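RNA from macrophages sorted from bone marrow and spleen was sequenced in 4 libraries, 1 for each organ and condition, grouped by sample title. The labels' protocols name an RNeasy kit and standard Illumina libraries. Per the file headers, the authors' tables give counts of uniquely mapped reads per NCBI Gene ID, a length, coverage as a percent of that length, and RPKM. The deposited counts add up to the header's total. A gene with no line in a table was set to 0. No label or header names the aligner, build, annotation or strand setting, so overlapping and antisense genes and near-identical copies are uncertain.

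CPM was computed from the counts on TMM-scaled library sizes (edgeR 4.0.16, R 4.3.3; factors 0.991 to 1.01), and intervals with scipy 1.17.1 under Python 3.11.15. No count model was fitted, since each group has a single library. Level intervals are exact Poisson and ratio intervals exact binomial; both treat reads as independent, which PCR copies are not. Differences between organs carry a normal approximation from the counts. The size rule was tested on simulated data. Symbols are those of the files, with 23 turned into dates by a spreadsheet restored from RefSeq by Gene ID. The text names the 7 members, up to 3 genes per list, comparison and direction past the size rule or else the most abundant, and the 3 nearest profiles; Tal1 in BM, the genes of other cell types and those in the figure of lineages were added after their values were seen. Some genes that this rule names in the membrane list are not reported here. The members and the 14 lists were chosen with earlier results of these data known. Alternatives were total-read and median-of-ratios scaling, the deposited RPKM, pseudocounts of 0.1 and 5, other minimums and thresholds of 1.5-fold and 4-fold.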

Additional observations from a re-analysis of the deposited data

Results flagged for a closer look

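The Epor difference went opposite ways in the 2 organs. T-ALL over normal was 1.6 in BM (1.20 to 2.13) and 0.471 in spleen (0.362 to 0.609), with both counting intervals clear of 1. On the log2 scale the BM difference exceeded the spleen difference by 1.76 (1.23 to 2.30, counting error only). With 1 library per group the difference between organs was not tested over animals.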

How the results depend on the processing

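No paired analysis was possible because each group has 1 library, and none could be left out. All 28 member log2 folds past or short of the size rule were recomputed with other scalings, RPKM and pseudocounts, 140 values; none that passed the rule changed sign, 138 moved by less than the distance from the ratio to the bound of its counting interval on that side, and with a pseudocount of 5 Alas2 in T-ALL BM against normal BM came to 1.28 and Gata1 in T-ALL spleen against T-ALL BM to -1.44. The 1 member lower in T-ALL spleen, Epor, was not counted (0 lower) with total reads, median-of-ratios, RPKM, a pseudocount of 5, a minimum of 50 CPM or 4-fold. The 2 members higher in T-ALL BM became 1 with a minimum of 50 CPM or 4-fold and 4 with 1.5-fold. The 2 lower in T-ALL spleen against T-ALL BM became 1 with RPKM or a pseudocount of 5, 0 with a minimum of 50 CPM or 4-fold and 4 with 1.5-fold. Of normal spleen against normal BM, the 3 higher became 1 with a pseudocount of 5 or a minimum of 50 CPM and 0 with 4-fold, and the 1 lower became 0 with a minimum of 50 CPM or 4-fold and 2 with 1.5-fold. A minimum removes genes and a threshold moves the limit by construction; the cause of the other shifts was not tested. Over all genes, T-ALL BM against normal BM had 778 genes higher and 100 lower, 415 and 51 with a minimum of 50 CPM, 1369 and 689 with 1.5-fold, 274 and 6 with 4-fold, 172 lower with no minimum or 1 CPM. T-ALL spleen against normal spleen had 1008 genes higher and 1080 lower, 605 and 566 with a minimum of 50 CPM, 1961 and 2338 with 1.5-fold, 236 and 131 with 4-fold. T-ALL spleen against T-ALL BM had 536 genes higher and 1086 lower, 293 and 566 with a minimum of 50 CPM, 1389 and 1879 with 1.5-fold, 155 and 461 with 4-fold, 1687 lower with no minimum or 1 CPM. Normal spleen against normal BM had 1626 genes higher and 1413 lower, 971 and 789 with a minimum of 50 CPM, 2472 and 2476 with 1.5-fold, 745 and 585 with 4-fold. Of 1120 counts for the lists, 121 moved by over 1.5 times and 999 did not. Members had 35 to 878 reads, which set the width of the intervals, and the spread between animals is not known.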
